A study of Mus musculus with 203 samples.

Results

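Chemokines are small secreted proteins that direct the migration of leukocytes through G protein-coupled receptors, and the genes of both sides of this system were followed in RAW cells, a mouse macrophage cell line (RAW264.7). Members were all genes whose symbol begins with Ccl, Cxcl, Cx3cl or Xcl and a digit (ligands) or with Ccr, Cxcr, Cx3cr, Xcr or Ackr and a digit (receptors). They were 62 of the 25094 genes listed, 39 ligands and 23 receptors. The study compared the response to IL4 (20 ng/ml for 6 h) in RAW cells that carry an shRNA against Kdm1a, a histone demethylase (shKDM1A), and in control RAW cells that carry an shRNA against GFP (shGFP). RNA-seq was done on 4 libraries for each of 4 groups: untreated shGFP, shGFP with IL4, untreated shKDM1A and shKDM1A with IL4. All 16 libraries come from lentivirally transduced lines on the BALB/c background, and the knockdown rests on a single hairpin. Hairpin and line coincide, so loss of Kdm1a, other hairpin effects and differences between the lines cannot be told apart. Knockdown below means the difference of shKDM1A from shGFP cells. A second experiment compared WT and macrophage-specific Gps2 KO bone marrow-derived macrophages (BMDMs) of C57BL/6 mice, with and without IL4. Its table holds comparisons made by the authors and no value per library, and its only use here was to see that it lists 47 of the 62 members.

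IL4 acts on macrophages through STAT6 and drives the alternative, or M2, state. In that state macrophages are known for ligands that attract eosinophils and Th2 cells (Ccl17, Ccl22, Ccl24), whereas the interferon- and NF-kB-driven state is known for Cxcl9, Cxcl10, Cxcl11, Ccl3, Ccl4 and Ccl5. Most chemokine genes lie in clusters of tandem duplicates, and most receptors bind several ligands. The atypical receptors (Ackr) take up ligands without G protein signalling.

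Values are log2 levels per library, scaled for depth. Weakly measured members hardly varied between libraries (SD of 0.017 or less in any group for those under the filter), so fold changes at low levels may be understated. Library totals ran from 17554721 to 27782568 tags, and correlations between libraries of 1 group ran from 0.99944 to 0.99979. Kdm1a was 11.18 ± 0.044 (SD, n = 4) in untreated shGFP and 10.30 ± 0.053 in untreated shKDM1A libraries, a log2 difference of -0.88 ± 0.028 (SE; limma, adjusted p = 5.6e-13), and -0.79 ± 0.028 with IL4 (adjusted p = 2.2e-12). Of 8 macrophage markers 7 were expressed, with Lyz2 the most abundant at 16.35 to 17.18, and Mertk was at -1 to -0.98. The log2 of the summed macrophage markers, to which Lyz2 contributes most, differed between groups: 17.57 to 17.62 in untreated shGFP, 17.23 to 17.25 in shGFP with IL4, 17.77 to 17.80 in untreated shKDM1A and 17.67 to 17.77 in shKDM1A with IL4. The markers did not move as 1 class: of the 7 tested, IL4 raised 2 and lowered 3 in shGFP cells (Adgre1 by 1.24 and Csf1r by 0.26, against -0.53 for Lyz2, -0.93 for Cd14 and -0.12 for Fcgr1) and raised 3 and lowered 3 in shKDM1A cells. Knockdown raised 4 and lowered 3 without IL4 (Lyz2 by 0.26, against -0.45 for Fcgr1) and raised 5 and lowered 2 with IL4. Of all genes tested, 26.9% and 27.1% were called for IL4 in shGFP and shKDM1A cells. For knockdown the shares were 38.2% without and 40.7% with IL4. The part of the markers in the results was not tested. Markers of T cells (5), B cells (4), neutrophils (4), fibroblasts (4) and epithelial cells (4) were all at or below 0, and of 4 dendritic cell markers Zbtb46 reached 4.22, Siglech 1.21, Clec9a 0.62 and Flt3 -1.90. The labels do not say whether the 4 libraries of a group were separate cultures, so p-values measure only the spread between these libraries. In bulk RNA, fewer cells expressing a gene and less RNA per cell cannot be told apart.

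RefSeq promoters (GRCm38.p6, 250 bases before to 50 after the start site) were at hand for 46 members, 14 of them among the members tested. Those of 5 genes are shown because they belong to the members with the largest changes: Cxcl14 (chr13:56296502-56296801, minus strand), Ccl9 (chr11:83578587-83578886, minus), its cluster neighbour Ccl3 (chr11:83649329-83649628, minus), Cxcl10 (chr5:92348840-92349139, minus) and Cxcr3 (chrX:101734098-101734397, minus). Capitals mark matches, on either strand, to 6 motifs. The STAT-type motifs were TTCNNNNGAA (the spacing STAT6 prefers) and TTCNNNGAA (a general STAT spacing). The others were TGANTCA (AP-1), GAAANNGAAA (interferon-stimulated response element), GAGGAAGT (PU.1) and the NF-kB consensus.
Cxcl14: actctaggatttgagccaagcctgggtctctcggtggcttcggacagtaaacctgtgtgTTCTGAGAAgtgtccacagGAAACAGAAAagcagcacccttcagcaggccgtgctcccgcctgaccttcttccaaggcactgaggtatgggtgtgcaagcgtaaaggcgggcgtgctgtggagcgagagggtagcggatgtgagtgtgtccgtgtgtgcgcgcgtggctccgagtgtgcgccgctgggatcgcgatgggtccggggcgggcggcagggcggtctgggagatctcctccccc
Ccl9: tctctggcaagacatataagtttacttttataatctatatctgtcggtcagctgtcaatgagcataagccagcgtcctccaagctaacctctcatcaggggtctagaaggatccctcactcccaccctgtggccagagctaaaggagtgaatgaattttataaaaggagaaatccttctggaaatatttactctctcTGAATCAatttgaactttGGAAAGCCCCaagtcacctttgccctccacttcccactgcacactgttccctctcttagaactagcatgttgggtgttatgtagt
Ccl3: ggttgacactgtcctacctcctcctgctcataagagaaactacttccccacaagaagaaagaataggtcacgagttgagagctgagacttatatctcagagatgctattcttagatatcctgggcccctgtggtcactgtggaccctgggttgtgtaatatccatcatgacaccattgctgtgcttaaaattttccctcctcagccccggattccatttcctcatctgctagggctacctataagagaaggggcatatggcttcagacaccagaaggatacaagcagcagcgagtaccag
Cxcl10: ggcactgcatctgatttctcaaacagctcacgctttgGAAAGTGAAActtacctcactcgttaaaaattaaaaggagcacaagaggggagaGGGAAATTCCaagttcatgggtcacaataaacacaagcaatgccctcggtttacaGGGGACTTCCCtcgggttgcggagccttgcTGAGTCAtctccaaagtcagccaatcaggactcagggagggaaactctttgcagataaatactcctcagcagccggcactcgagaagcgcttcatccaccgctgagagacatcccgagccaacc
Cxcr3: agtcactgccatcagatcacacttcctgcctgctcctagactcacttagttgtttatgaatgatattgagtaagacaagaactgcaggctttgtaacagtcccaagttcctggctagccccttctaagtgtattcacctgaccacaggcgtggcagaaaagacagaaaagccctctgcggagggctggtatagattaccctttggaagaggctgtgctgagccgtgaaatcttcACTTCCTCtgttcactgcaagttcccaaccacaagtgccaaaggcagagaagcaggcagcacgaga
The Cxcl14 window held 1 match to TTCNNNGAA, starting at -191, and 1 to GAAANNGAAA at -172. Ccl9 held an AP-1 match at -53 and an NF-kB match at -35, and Ccl3 held none. Cxcl10 held 5 matches: GAAANNGAAA at -213, NF-kB at -159, a pair of overlapping NF-kB matches at -104 and -103, and AP-1 at -74. Cxcr3 held a PU.1 match on the opposite strand at -16. None of the 14 tested members with a promoter held TTCNNNNGAA, which 6.95% of all 32851 promoters of this length hold. TTCNNNGAA was found in 8.30% of all promoters, TGANTCA in 7.81%, GAAANNGAAA in 3.44%, the NF-kB consensus in 8.46% and GAGGAAGT in 3.20%. Among the 46 members with a promoter, 12 held NF-kB (26.1%), 9 AP-1 (19.6%), 4 TTCNNNGAA (8.70%), 3 GAAANNGAAA (6.52%), 1 TTCNNNNGAA and 1 GAGGAAGT. A member was counted if any of its promoters matched, whereas the shares of all promoters count each promoter. The shares are therefore not in the same unit. A match of letters is no evidence of binding.

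Of the 62 members, 23 passed the filter on low values (at least 1 in at least 4 libraries), 13 ligands and 10 receptors. All 23 were at 1 or above in all 16 libraries, so none entered through 1 group alone. Levels of different genes were compared as the mean log2 value minus log2 of the gene length in kb. On that length-adjusted scale the most abundant member in untreated shGFP cells was Ccl3 (11.50), a CCR1 ligand. It was above 95.6% of all genes tested. Cx3cr1, the fractalkine receptor, followed at 11.43, then Ccl9 (a CCR1 ligand, 11.10), Ccl4 (MIP-1 beta, 10.19) and Cxcl16 (the CXCR6 ligand, 10.05). The ranges of Ccl3 (11.45 to 11.57) and Cx3cr1 (11.40 to 11.46) over the 4 libraries overlapped, so their order was not resolved. Cxcl14 stood at 8.85, Ccl2 at 7.43 and Cxcl10 at 7.16. Apart from Cx3cr1, the receptors were weakly expressed: Cxcr3 led them at 6.19, with 31.3% of genes tested below it, and Xcr1 was at -0.16.

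**Figure D1:**
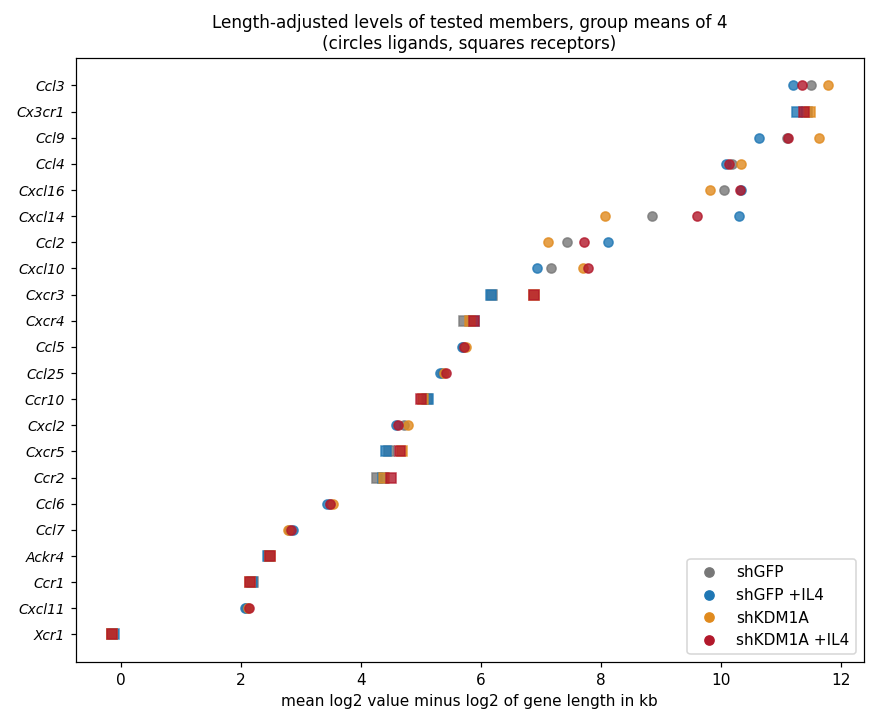
Length-adjusted level (mean log2 value of 4 libraries minus log2 of gene length in kb) of 22 of the 23 tested members in each of the 4 groups. Ccl3, Cx3cr1, Ccl9, Ccl4 and Cxcl16 lie above 9.8 in all groups, and Cxcl14 spreads most between groups, from 8.07 to 10.30.

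The other 39 members could not be tested. Of these, 22 (18 ligands and 4 receptors) were listed at 0 in all 16 libraries, as were 8488 genes in all, and 17 carried values between -2.27 and 0.65 that hardly varied (largest SD within a group 0.017). Ccl22, a CCR4 ligand of M2 macrophages, ranged from 0.31 to 0.35 over all libraries. Ccl17, the other CCR4 ligand, ranged from -1.37 to -1.36, and the eosinophil attractant Ccl24 from -1.55 to -1.53. Ccl12, a CCR2 ligand of mice, ranged from -2.09 to -2.08. All 4 of these ligands were under the filter in both lines, with and without IL4. The neutrophil attractants Cxcl1, Cxcl3 and Cxcl5 and the CXCR3 ligand Cxcl9 were listed at 0. Among the receptors, Ccr3 (0.60 to 0.65) and Ccr7 (-2.27 to -2.26), which guides cells to lymph nodes, were under the filter, and Ackr3 was listed at 0.

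IL4 in shGFP cells raised 4 of 13 tested ligands and lowered 4, and raised 2 of 10 tested receptors and lowered 1, at an adjusted p under 0.05. Of all 12905 genes tested, 13.1% were higher and 13.7% lower. The median log2 difference of the 23 members was -0.019, against -0.00049 for all genes tested. The 6 members that rose were Cxcl14, Ccl2, Cxcl16, Cxcr4, Ccr2 and Ccl7, and the 5 that fell were Ccl9, Ccl3, Cxcl10, Cx3cr1 and Ccl4. In shKDM1A cells IL4 raised 3 ligands and lowered 4, and raised 2 receptors and lowered 1, against 13.6% higher and 13.5% lower among all genes. The comparisons of IL4 in the 2 lines share no library. Both called 9 members, all 9 in the same direction, and 16 of the 23 tested members (69.6%) had the same sign in both. Of all genes tested, 14.9% were called in both, 96.6% of those in the same direction, and 64.3% had the same sign, so neither direction count sets the members apart. Ccl7 and Cxcl10 passed the test in shGFP and not in shKDM1A cells, and Cxcl2 in shKDM1A and not in shGFP cells. Of these, only Cxcl10 had a called difference between the responses (adjusted p = 0.027, against 0.73 for Ccl7 and 0.68 for Cxcl2).

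**Figure D2:**
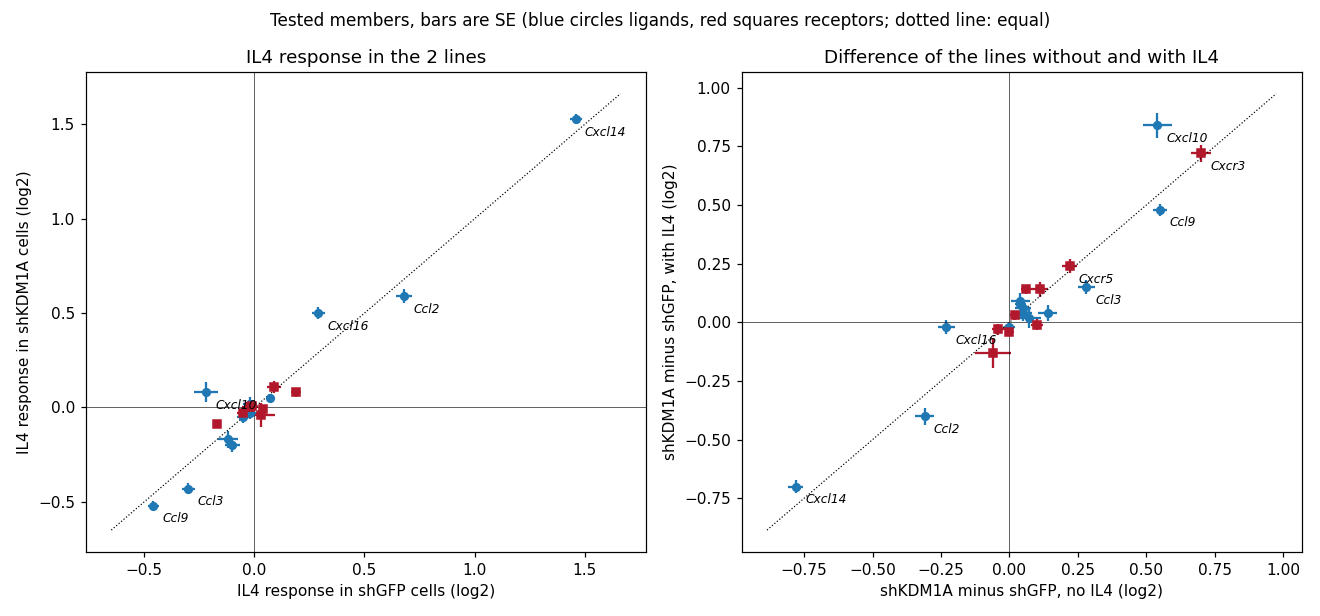
Log2 differences of 22 of the 23 tested members with SE bars. Left, IL4 response in shGFP (x) against shKDM1A cells (y). Right, shKDM1A minus shGFP without (x) against with IL4 (y). Cxcl14 lies far from the rest on the left (1.46 and 1.53), and Cxcl16 (0.29 and 0.50) and Cxcl10 (-0.22 and 0.08) lie above the dotted line of equal response.

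Knockdown of Kdm1a without IL4 raised 4 ligands and lowered 3, and raised 5 receptors and lowered none, where 19.7% of all genes tested were higher and 18.4% lower. At an unadjusted p under 0.05 no receptor was lower either. Under quantile normalization the receptor calls of Cx3cr1 (0.00, adjusted p = 0.90) and Ccr2 (0.06, adjusted p = 0.14) were lost. With IL4, shKDM1A cells were higher in 4 ligands and 4 receptors and lower in 2 ligands and 1 receptor, where 20.9% of all genes were higher and 19.8% lower. The 9 members called in both comparisons had the same direction in both, as did 98% of the 3304 genes called in both. Cxcr3, Ccl9 and Cxcl10 were the members raised most, and Cxcl14 and Ccl2 those lowered most. The difference of the IL4 responses was called for 2 ligands, Cxcl10 and Cxcl16, both more positive in shKDM1A cells, where 3.56% of all genes were called in that direction and 2.57% in the other. It was called by limma for none of the receptors, of which 1 was higher and 1 lower at an unadjusted p under 0.05 (Cx3cr1 and Cxcr4). Under median centring the difference was called for Cx3cr1 (0.09, adjusted p = 0.045). For Cxcr4 it was called with a replicate block (-0.11, adjusted p = 0.047). The same held without untreated shGFP library 4 (adjusted p = 0.047) or untreated shKDM1A library 2 (adjusted p = 0.040).

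**Figure D3:**
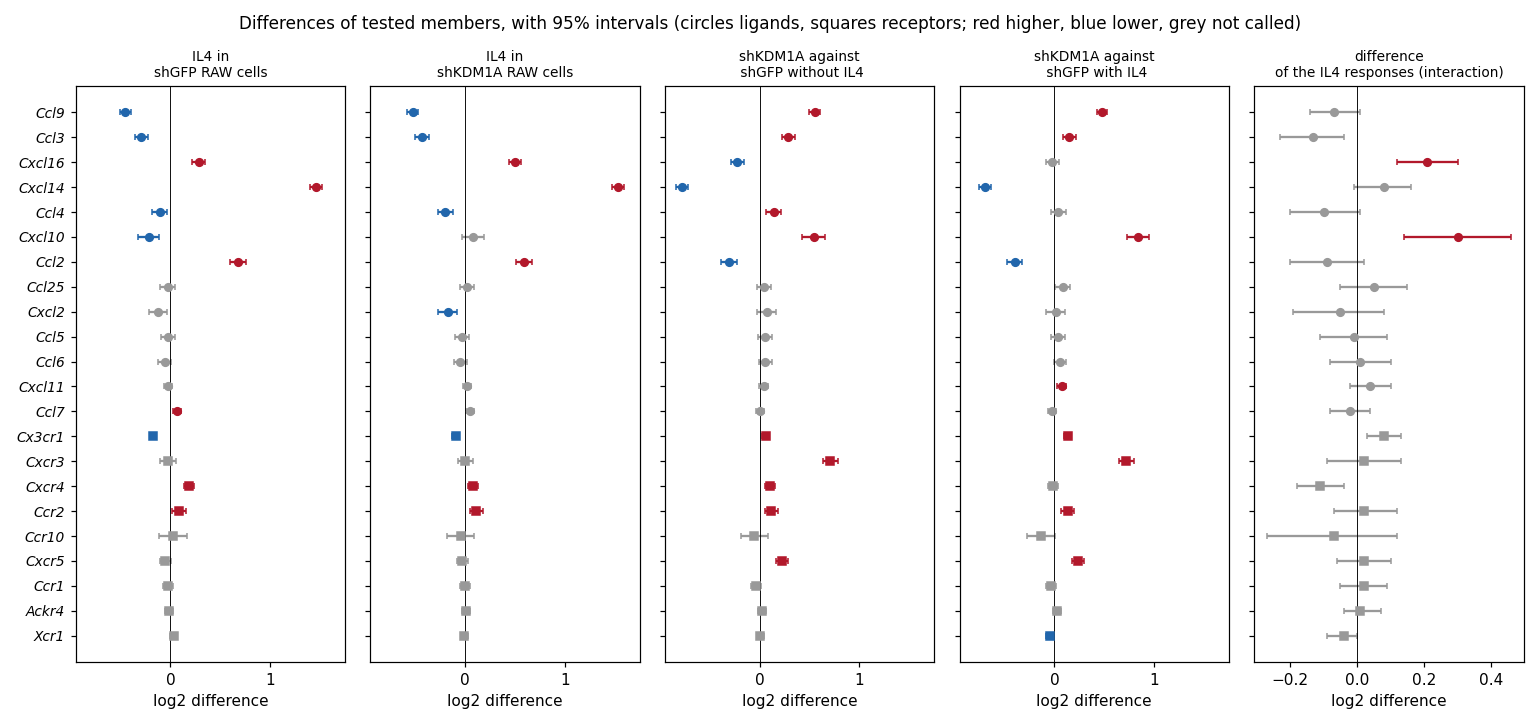
Log2 differences of 22 of the 23 tested members in the 5 comparisons, with 95% intervals from limma. Circles are ligands and squares receptors. Red marks members called higher, blue lower and grey not called. Cxcl14 at 1.46 and 1.53 is the largest IL4 response, and all 5 receptors called for knockdown without IL4 lie to the right of 0. Of these, Cx3cr1 and Ccr2 lost their call under quantile normalization.

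Cxcl14 (mm9 chr13:56390006-56397912) encodes an epithelial and macrophage chemokine that attracts monocytes and dendritic cell precursors. It stood at 9.73, 9.73, 9.63 and 9.75 in the untreated shGFP libraries and at 11.16, 11.19, 11.17 and 11.15 with IL4. In shKDM1A libraries it stood at 8.94, 8.97, 8.89 and 8.93 without and at 10.52, 10.41, 10.46 and 10.48 with IL4. The 4 groups did not overlap. IL4 raised it 2.74-fold in shGFP cells (log2 1.46 ± 0.028 SE, adjusted p = 2.4e-15) and 2.90-fold in shKDM1A cells (1.53 ± 0.028, adjusted p = 1.6e-15). Knockdown changed it by -0.78 without and by -0.70 with IL4 on the log2 scale. The 2 IL4 responses differed by 0.08 (95% interval -0.01 to 0.16, adjusted p = 0.26).

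The CCR2 ligands Ccl2, Ccl7 and Ccl12 lie at mm9 chr11:81849079-81993314 in a cluster of 6 ligands, of which Ccl2 and Ccl7 were tested. Ccl2, the main monocyte attractant, was 7.06, 7.18, 7.14 and 7.05 in untreated shGFP libraries and 7.70, 7.78, 7.84 and 7.83 with IL4. In shKDM1A libraries it was 6.77, 6.84, 6.74 and 6.83 without and 7.35, 7.40, 7.37 and 7.43 with IL4. As with Cxcl14, no groups overlapped, IL4 groups were the highest of each line and shKDM1A groups were lower than their shGFP counterparts. IL4 raised Ccl2 1.60-fold in shGFP (0.68 ± 0.036 on the log2 scale, adjusted p = 3.7e-10) and 1.51-fold in shKDM1A cells (0.59 ± 0.036, adjusted p = 2.4e-09). The knockdown difference was -0.31 ± 0.036 without IL4 (adjusted p = 3.3e-06) and -0.40 ± 0.036 with IL4 (adjusted p = 1.7e-07). Ccl7, another CCR2 ligand, moved by 0.07 with IL4 in shGFP cells (adjusted p = 0.013) around a level of 2.46. In shKDM1A cells it moved by 0.05 (adjusted p = 0.067), which passed the threshold under median centring (0.027), with a trended prior (0.014) or without IL4-treated shKDM1A library 4 (0.048). Of the rest of the cluster, Ccl11, Ccl8 and Ccl1 were listed at 0. Ccr2, the receptor of Ccl2 and Ccl7, was 6.11 ± 0.053 in untreated shGFP and 6.23 ± 0.056 in untreated shKDM1A libraries, and 6.20 ± 0.045 and 6.34 ± 0.021 with IL4. Knockdown raised Ccr2 by 0.11 without IL4 (adjusted p = 0.0096) and 0.14 with IL4 (adjusted p = 0.0024), while Ccl2 fell in the same 2 comparisons. IL4 raised Ccr2 by 0.11 in shKDM1A cells (adjusted p = 0.012). Its rise of 0.09 in shGFP cells (adjusted p = 0.043) lost its call without untreated shGFP library 1 or 4 or without IL4-treated shGFP library 1, 2 or 4, at adjusted p from 0.069 to 0.13, and without a filter, with a trended prior or in a model of those 2 groups alone (0.11, 0.074 and 0.061). Under quantile normalization neither that rise (0.07, adjusted p = 0.13) nor the difference of 0.11 without IL4 (0.06, adjusted p = 0.14) was called.

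Ccl3, Ccl4, Ccl5, Ccl6 and Ccl9 form a second cluster at mm9 chr11:83339281-83478185, with all 5 members tested. In it, IL4 lowered 3 and raised none in each line, where 13.7% (shGFP) and 13.5% (shKDM1A) of all genes were lowered. Knockdown raised the same 3, Ccl9, Ccl3 and Ccl4, without IL4 and 2 of them, Ccl9 and Ccl3, with IL4, where 19.7% and 20.9% of all genes were raised. Ccl9 (mm9 chr11:83386419-83392138), also known as MIP-1 gamma, was 12.70, 12.68, 12.67 and 12.68 in untreated shGFP and 12.23, 12.23, 12.15 and 12.29 in IL4-treated shGFP libraries. In shKDM1A libraries it was 13.22, 13.21, 13.23 and 13.25 without and 12.72, 12.70, 12.73 and 12.67 with IL4. Thus untreated shKDM1A libraries were highest, IL4-treated shGFP libraries lowest, and IL4-treated shKDM1A libraries overlapped the untreated shGFP libraries. The IL4 differences were -0.46 ± 0.025 (adjusted p = 4.7e-10) in shGFP and -0.52 ± 0.025 (adjusted p = 1.0e-10) in shKDM1A cells. The knockdown differences were 0.55 ± 0.025 (adjusted p = 3.3e-11) without and 0.48 ± 0.025 (adjusted p = 1.7e-10) with IL4, 1.46-fold and 1.39-fold.

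Ccl3 (MIP-1 alpha; mm9 chr11:83461345-83462880) was likewise highest in untreated shKDM1A and lowest in IL4-treated shGFP libraries. It was 11.22, 11.10, 11.10 and 11.18 in untreated and 10.94, 10.81, 10.86 and 10.81 in IL4-treated shGFP libraries, and 11.44, 11.46, 11.40 and 11.44 in untreated and 11.02, 11.01, 10.99 and 11.00 in IL4-treated shKDM1A libraries. The 4 groups did not overlap, and untreated shGFP libraries lay above IL4-treated shKDM1A libraries. IL4 changed it by -0.30 ± 0.031 in shGFP (adjusted p = 1.8e-06) and by -0.43 ± 0.031 in shKDM1A cells (adjusted p = 2.3e-08). Knockdown raised it by 0.28 ± 0.031 without (adjusted p = 1.7e-06) and 0.15 ± 0.031 with IL4 (adjusted p = 0.00098). The responses differed by -0.13 (95% interval -0.23 to -0.04, adjusted p = 0.083), which passed the threshold without untreated shGFP library 1 (-0.16, adjusted p = 0.049). Ccl4 (MIP-1 beta; mm9 chr11:83476086-83478185) fell by 0.20 with IL4 in shKDM1A cells (adjusted p = 0.00043) and rose by 0.14 with knockdown without IL4 (adjusted p = 0.0048). With IL4 the lines differed by 0.04 (95% interval -0.03 to 0.12, adjusted p = 0.37). Its difference with IL4 in shGFP cells, -0.10 (adjusted p = 0.043), was between overlapping groups (9.48 to 9.62 untreated, 9.41 to 9.57 with IL4). It lost its call without untreated shGFP library 1, 2 or 4 or IL4-treated shGFP library 2, 3 or 4, at adjusted p from 0.072 to 0.14, and without a filter, under quantile normalization or in a model of those 2 groups alone (0.12, 0.068 and 0.092). Ccl5 (RANTES) ranged from 4.70 to 4.92 and Ccl6 from 3.90 to 4.10 over all libraries, and neither passed the test in any comparison. Ccl6 passed it between the lines with IL4 without IL4-treated shGFP library 1 (0.08, adjusted p = 0.038). Their receptor gene Ccr1 (3.62 to 3.72) was not called in any comparison. For Ccr1 the 95% intervals lay between -0.09 and 0.09 in all 5 comparisons, on a scale that may understate changes at this level.

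The CXCR3 ligands Cxcl9, Cxcl10 and Cxcl11, which attract activated T cells, lie within 42.0 kb at mm9 chr5:92750357-92792322. Cxcl10 was 7.30, 7.32, 7.14 and 7.40 in untreated and 7.09, 7.06, 7.01 and 7.12 in IL4-treated shGFP libraries. In shKDM1A libraries it was 7.88, 7.79, 7.79 and 7.84 without and 7.83, 7.82, 8.05 and 7.93 with IL4. All 8 shKDM1A libraries were above all 8 shGFP libraries. Knockdown raised Cxcl10 1.45-fold without IL4 (0.54 ± 0.053, adjusted p = 5.3e-07) and 1.79-fold with IL4 (0.84 ± 0.053, adjusted p = 2.2e-09). IL4 changed it in shGFP cells by -0.22 ± 0.053 (adjusted p = 0.0055), whereas in shKDM1A cells the difference was 0.08 ± 0.053 (95% interval -0.03 to 0.19, adjusted p = 0.30). The responses differed by 0.30 ± 0.075 (adjusted p = 0.027). This call was lost without untreated shGFP library 1 or 4, IL4-treated shGFP library 2 or 3, or untreated shKDM1A library 2 or 3, at adjusted p from 0.051 to 0.059 and differences from 0.27 to 0.30, and when no filter was applied (adjusted p = 0.10). Cxcl11 was 2.74 ± 0.021 in shGFP and 2.82 ± 0.021 in shKDM1A cells with IL4, a difference of 0.08 (adjusted p = 0.0049). Without IL4 it differed by 0.04 (adjusted p = 0.16).

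Cxcr3 (mm9 chrX:98926874-98929486), the receptor of these ligands, changed with knockdown and not detectably with IL4. It was 6.91, 6.83, 6.80 and 6.93 in untreated and 6.84, 6.92, 6.80 and 6.83 in IL4-treated shGFP libraries, and 7.64, 7.57, 7.52 and 7.54 in untreated and 7.58, 7.53, 7.54 and 7.64 in IL4-treated shKDM1A libraries. All shKDM1A libraries lay above all shGFP libraries, and within each line the treated and untreated libraries overlapped. The knockdown differences were 0.70 ± 0.036 (1.63-fold, adjusted p = 1.9e-10) and 0.72 ± 0.036 (1.65-fold, adjusted p = 1.2e-10). The IL4 differences were -0.02 in shGFP (95% interval -0.10 to 0.06) and 0.00 in shKDM1A cells (-0.07 to 0.08). Thus a ligand and its receptor, Cxcl10 and Cxcr3, both rose in shKDM1A cells.

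**Figure D4:**
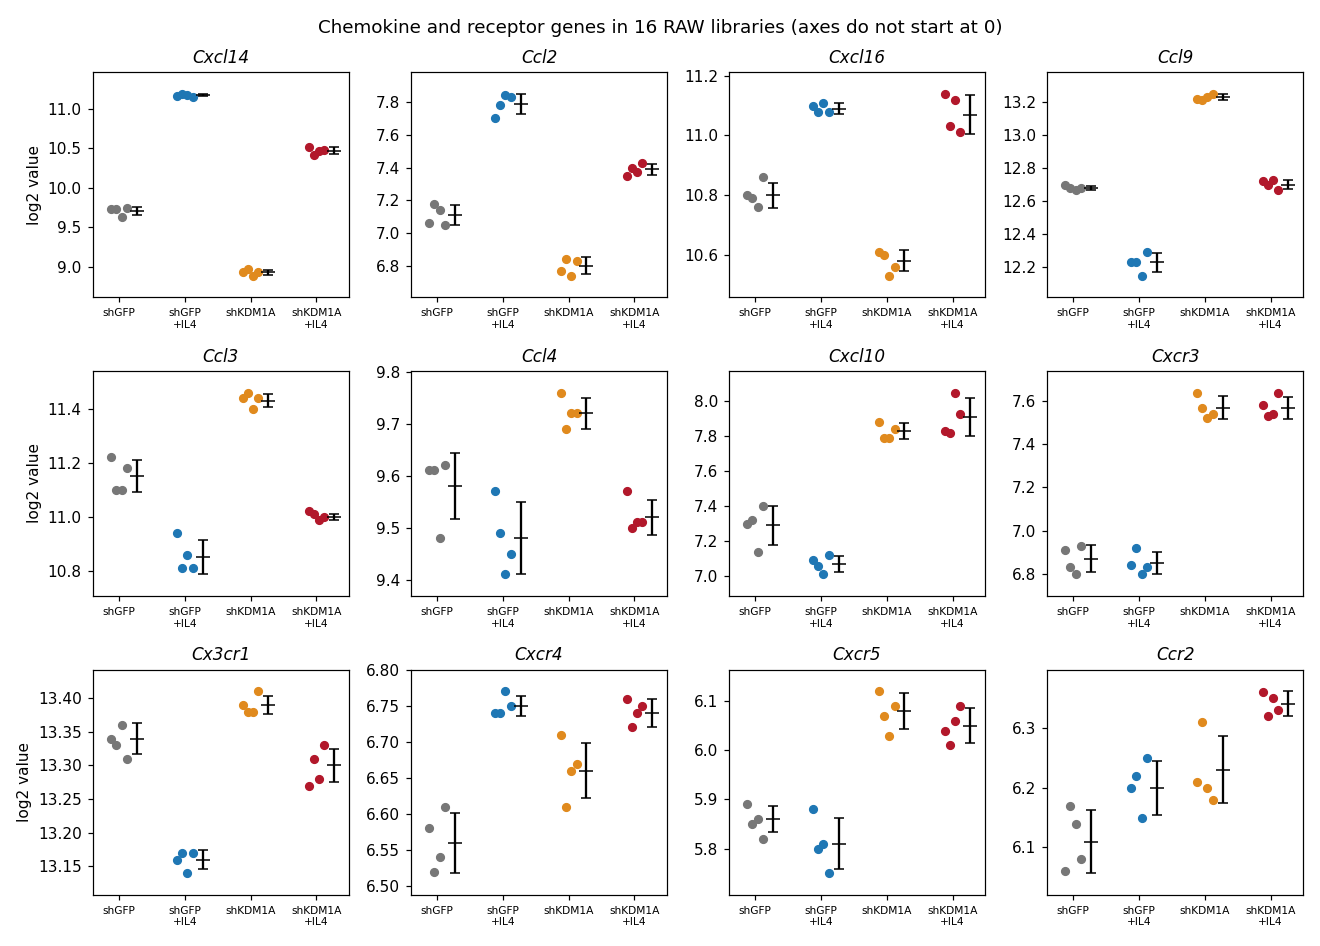
Log2 value in each of the 16 libraries (points), with the group mean and SD (bars), for the 12 members called in at least 2 comparisons. Cxcl14 and Ccl2 rise with IL4 and are lower in shKDM1A cells, Ccl9 and Ccl3 fall with IL4 and are higher in shKDM1A cells, and Cxcr3 separates the 2 lines alone.

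Cxcl16 (mm9 chr11:70267891-70273486) is a membrane-bound ligand and scavenger receptor. It was 10.80, 10.79, 10.76 and 10.86 in untreated and 11.10, 11.08, 11.11 and 11.08 in IL4-treated shGFP libraries, and 10.61, 10.60, 10.53 and 10.56 in untreated and 11.14, 11.03, 11.12 and 11.01 in IL4-treated shKDM1A libraries. The 2 IL4-treated groups overlapped and the untreated groups did not. IL4 raised it by 0.29 ± 0.030 in shGFP (adjusted p = 1.7e-06) and by 0.50 ± 0.030 in shKDM1A cells (adjusted p = 2.3e-09), and these responses differed by 0.21 ± 0.043 (adjusted p = 0.0085). Knockdown changed it by -0.23 ± 0.030 without IL4 (adjusted p = 1.5e-05), and with IL4 the difference was -0.02 (95% interval -0.08 to 0.05). Cxcl16 overlaps Zmynd15 on the opposite strand, with 552 exon bases shared (18.3% of its exon bases in the GENCODE annotation of mm9), and reads were counted on both strands, so reads from the shared part cannot be told apart. Zmynd15 itself moved by 0.31 and 0.40 with IL4 in the 2 lines and by -0.26 and -0.17 with knockdown. Its responses differed by 0.09 (adjusted p = 0.11). The CXCL16 receptor gene Cxcr6 was at 0.19 to 0.22.

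The remaining ligands tested were Cxcl2 and Ccl25. Cxcl2, a neutrophil attractant, fell by 0.17 with IL4 in shKDM1A cells (adjusted p = 0.0079) between groups that overlapped at 4.84. In shGFP cells the difference was -0.12 (adjusted p = 0.057), which passed the threshold in a model of those 2 groups alone (0.016), under quantile normalization (0.048), with a trended prior (0.026) or without untreated shGFP library 3 (0.037). It is the only tested gene of its 5-ligand cluster at mm9 chr5:91188324-91334964, where Cxcl1, Cxcl3, Cxcl5 and Cxcl15 were listed at 0. Its receptor gene Cxcr2 was at -1.19 to -1.16. Ccl25, a thymic and gut CCR9 ligand, ranged from 5.40 to 5.6 and was not called. Its difference between the lines with IL4 was 0.09 (adjusted p = 0.051), which passed the threshold without IL4-treated shGFP library 3 (adjusted p = 0.046) or IL4-treated shKDM1A library 4 (adjusted p = 0.020), with a filter of 5 in place of 1 (0.049), under median centring (0.031) or in a model of those 2 groups alone (0.045).

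Cx3cr1 (mm9 chr9:119957801-119977414), the fractalkine receptor of tissue macrophages and monocytes, was the most abundant receptor and moved little. It was 13.34, 13.33, 13.36 and 13.31 in untreated and 13.16, 13.17, 13.14 and 13.17 in IL4-treated shGFP libraries, and 13.39, 13.38, 13.38 and 13.41 in untreated and 13.27, 13.31, 13.28 and 13.33 in IL4-treated shKDM1A libraries. IL4 changed it by -0.17 ± 0.018 in shGFP (adjusted p = 1.4e-06) and by -0.09 ± 0.018 in shKDM1A cells (adjusted p = 0.00079). Knockdown raised it by 0.14 ± 0.018 with IL4 (adjusted p = 1.4e-05) and by 0.06 ± 0.018 without (adjusted p = 0.021). The responses differed by 0.08 (95% interval 0.03 to 0.13, adjusted p = 0.071), which median centring moved past the threshold (0.045). The difference without IL4 lost its call without untreated shGFP library 2 or 4 or untreated shKDM1A library 4 (adjusted p from 0.051 to 0.068), or with a filter of 5 in place of 1 (0.059). Under quantile normalization neither knockdown difference was called (0.00 without IL4, adjusted p = 0.90, and 0.05 with IL4, adjusted p = 0.11). Its ligand gene Cx3cl1 was at -1.55 to -1.54.

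Cxcr4, the CXCL12 receptor that retains cells in bone marrow, was 6.58, 6.52, 6.54 and 6.61 in untreated and 6.74, 6.74, 6.77 and 6.75 in IL4-treated shGFP libraries, which did not overlap. IL4 raised it by 0.19 ± 0.023 in shGFP (adjusted p = 1.1e-05) and 0.08 ± 0.023 in shKDM1A cells (adjusted p = 0.016), and the latter call was lost without untreated shKDM1A library 2 (0.06, adjusted p = 0.061) or with a trended prior (0.089). Knockdown raised it by 0.10 without IL4 (adjusted p = 0.0027), and with IL4 the difference was -0.01 (95% interval -0.06 to 0.04). The responses differed by -0.11 ± 0.033 (adjusted p = 0.064), which passed the threshold without untreated shGFP library 4 (adjusted p = 0.047) or untreated shKDM1A library 2 (adjusted p = 0.040). Its ligand gene Cxcl12 was listed at 0. Cxcr5, the CXCL13 receptor of follicular lymphocytes, was 5.86 ± 0.026 in untreated shGFP and 6.08 ± 0.036 in untreated shKDM1A libraries, and 5.81 ± 0.052 and 6.05 ± 0.036 with IL4. The lines did not overlap, with differences of 0.22 ± 0.028 (adjusted p = 7.9e-06) and 0.24 ± 0.028 (adjusted p = 3.0e-06), and the IL4 differences were not called (-0.05 and -0.03). The gene lies across Bcl9l, which is on the opposite strand, rose by 0.33 and 0.13 with knockdown and also by 0.41 and 0.20 with IL4 in shGFP and shKDM1A cells (adjusted p = 2.7e-06 and 0.0026), and shares no annotated exon bases with it.

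Xcr1 differed by -0.04 between shKDM1A and shGFP cells with IL4 (adjusted p = 0.041), at levels of 1.98 to 2.04, and the call was lost without any 1 of IL4-treated shGFP libraries 2, 3 and 4 and IL4-treated shKDM1A libraries 1 to 4 (adjusted p from 0.061 to 0.099). It was also lost under median centring (0.13), under quantile normalization (0.064) and in a model of those 2 groups alone (0.12). Its IL4 difference in shGFP cells, 0.04 (adjusted p = 0.11), passed the threshold without a filter (0.030), with a trended prior (0.016) or without IL4-treated shGFP library 1 (0.047). Ccr10, the receptor of the epithelial ligands CCL27 and CCL28, ranged from 5.65 to 6.07 and had the widest spread of the tested receptors (SD up to 0.13). It was not called, with a difference of -0.13 between the lines with IL4 (95% interval -0.27 to 0.01, adjusted p = 0.13), which stood at the threshold without IL4-treated shGFP library 4 (-0.17, adjusted p = 0.050). Ackr4, an atypical receptor of CCL19, CCL21 and CCL25, ranged from 3.49 to 3.59 and was not called. It shares 189 exon bases with Acad11 on the opposite strand. Ccr2, on the same chromosome as Xcr1 and Ccr1, was called in all 4 comparisons of 2 groups and Ccr1 in none.

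Genes that act downstream of chemokine receptors were taken from a list of 43, of which 42 passed the filter. IL4 raised 11 and lowered 6 in shGFP cells (40.5% called, against 26.9% of all genes tested), and raised 11 and lowered 8 in shKDM1A cells (45.2% against 27.1%). Knockdown raised 10 and lowered 11 without IL4 (50% against 38.2%), and raised 18 and lowered 12 with IL4 (71.4% against 40.7%). The IL4 responses differed for 2 genes in one direction and 1 in the other (7.14% against 6.13%). The 42 genes were at 5.59 or above in every library, whereas the filter admitted genes from 1. The shares were not matched for level. The median log2 differences of the list in these 5 comparisons were 0.0086, 0.018, -0.019, 0.021 and 0.0033, against -0.00049, -0.0025, -0.0027, -0.0024 and -0.0015 for all genes tested. Among the effectors, Plcb2, a phospholipase C driven by G protein beta-gamma subunits, differed in shKDM1A from shGFP cells by -1.56 ± 0.034 without and -1.66 with IL4 (adjusted p = 7.2e-15 and 2.8e-15), the largest change of the list. Of the RGS proteins, which shorten G protein signals, 4 of 8 were higher with knockdown without IL4 and 3 lower, where 19.7% and 18.4% of all genes were. Rgs16 rose by 0.82 without and 1.02 with IL4, and Rgs1 by 0.42 in both. Rgs3 and Rgs18 each fell by 0.13 without IL4, and Rgs19 by 0.10. Arrb1, an arrestin that desensitises receptors, differed by -0.45 and -0.38 and was called lower in both, while Arrb2 (-0.02 and 0.01) was not called. The motility regulator Tiam1, a Rac activator, rose with IL4 (0.48 in shGFP and 0.42 in shKDM1A cells) and with knockdown (0.74 and 0.68). Of 4 relatives of the members outside the naming rule, Ccrl2 fell by 0.10 with IL4 in shGFP and by 0.09 in shKDM1A cells, Pf4 was at 2.71 to 2.82 and not called, Cmklr1 was under the filter and Ppbp was listed at 0.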

How the data were processed

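RNA-seq of RAW cells (4 groups of 4 libraries) was analysed. The authors aligned reads to mm9 (HISAT2 and Bowtie2 are named), used HOMER to count exon reads of RefSeq genes on both strands, condensed to genes, and ran DESeq2 between groups. The values the authors deposited per library are depth-scaled log2 values. The transformation is not given in the sources used here. Taken as powers of 2, they sum to between 19700000 and 20600000 in every library whatever its total, from which base 2 was inferred. The columns of the authors' comparisons (21, holding fold changes on the log2 scale and raw and adjusted p-values) were not used, and for BMDMs the deposited table holds nothing else, so the planned BMDM comparisons were not made.

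Groups came from the sample labels. The members and the gene lists were chosen with earlier results of these data known. Genes at 1 or above in at least 4 libraries were kept (12905), and 4 group means were fitted in 1 model with limma 3.58.1 in R 4.3.3 (lmFit, contrasts, eBayes), with Benjamini-Hochberg adjustment per contrast over all genes tested and a threshold of 0.05. Intervals are 95%. The step was tested on simulated data before use. Genes named were the members called in a contrast, up to 10 ligands and 10 receptors by size, and a fixed list of well-known members whatever their result. Other members named as ligand, receptor, neighbour or untested were chosen after their values were seen, as were the pathway genes given as examples. A value of exactly 0 in all libraries is called listed at 0, since other genes have values below it, and it is no measure of absence. Alternatives were another filter or none, median centring, quantile normalization, a replicate block, a trended prior, 2-group models and leaving out each library. Copies such as Ccl21a, Ccl21b and Ccl21c, Ccl27a and Ccl27b, or Ccr1 and Ccr1l1 can share reads and are uncertain. Exon overlaps were taken from the mm9 GENCODE annotation. The chromatin samples were not used here, and 1 tested member is counted but not reported by name.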

Additional observations from a re-analysis of the deposited data

Results flagged for a closer look

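The difference of the IL4 responses between shKDM1A and shGFP cells passed the threshold for 2 members. It was 0.30 on the log2 scale for Cxcl10 and 0.21 for Cxcl16.

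In 6 of 92 checks (23 members in 4 groups of 4), 1 library stood apart from the other 3 by Dixon's ratio. Chance gives about 1 in 20, or 4.6 of 92. Ccl4 was 9.48 in untreated shGFP library 3, against 9.61 to 9.62 in the others. Ccr1 was 3.72 in IL4-treated shKDM1A library 2, against 3.62 to 3.63. Cxcr4 was 6.77 in IL4-treated shGFP library 3, against 6.74 to 6.75. Cxcl11 was 2.78 in IL4-treated shGFP library 1, against 2.73 to 2.74. Xcr1 was 2.00 in IL4-treated shGFP library 1, against 2.04 in each of the others, and 1.98 in IL4-treated shKDM1A library 4, against 1.99.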

How the results depend on the processing

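Leaving out 1 library at a time gave 9 to 12 members called for IL4 in shGFP cells (11 with all libraries), 9 to 11 for IL4 in shKDM1A cells (10), 11 to 12 for knockdown without IL4 (12), 10 to 12 with IL4 (11) and 1 to 2 for the difference of the responses (2), where Cxcl10 was the member lost. The other settings gave 10 to 13, 9 to 11, 10 to 12, 9 to 11 and 1 to 3 members. The difference of the responses fell to 1 member without a filter, and without IL4-treated shGFP library 2 or 3 or untreated shKDM1A library 3. Of 1841 values of single members under the alternatives, 1772 stayed on their side of the threshold, 45 lost a call, 24 gained one and none reversed while called (46 of 115 were called to begin with). In 44 the sign changed without a call on either side. Median centring and quantile normalization moved the median of all genes by at most 0.01. Single members could move further: under quantile normalization the knockdown difference of Cx3cr1 with IL4 went from 0.14 to 0.05.

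Replicate numbers gave no clear pairing of the samples. Deviations of same-numbered libraries correlated from -0.06 to 0.27 over the IL4 comparisons and from -0.09 to 0.09 over the knockdown comparisons. Over all groups the median was 0.04 for same-numbered libraries, against -0.01 for libraries of different number. Of 16 libraries, 6 were closest to a library of their own number, a count not set against an expected one. With a replicate block, 11, 10, 12, 11 and 3 members were called. The block added the difference of the responses for Cxcr4 (adjusted p = 0.047) and the line difference with IL4 for Ccl25 (0.034), and lost Xcr1 with IL4 (0.061). At low levels, where values hardly vary, the scale may limit what can be detected.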
